A study of Rattus norvegicus with 2 samples.

Results

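Transcript levels of 10 genes of the Hippo pathway were compared between 2 cultures of primary rat oligodendrocyte precursor cells (OPCs), proliferating glia that can mature into the myelin-forming cells of the brain. The genes were taken by symbol from the deposited table of 17202 genes, and all 10 were found: Yap1, Wwtr1, Tead1, Lats1, Lats2, Amotl1, Amotl2, Cyr61, Ctgf and Ankrd1. One culture received amyloid-beta (Aβ), the peptide of Alzheimer plaques, at 1 µM over 2 days, and the second culture was given DMSO, the solvent. Both were of wild-type brain origin and grew in the same medium, labelled OGM. Each condition gave 1 library, and estimated counts summed to 15117102 (Aβ) and 15019416 (DMSO). The protocol text is the same for both samples and describes the Aβ treatment alone, so only this shared wording gives the time in DMSO. The labels name developing animals in the design and adult OPCs in the extraction protocol, and they do not say how many animals were pooled. Both sample titles carry the code P1, which was not read as an age here.

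The Hippo pathway is a kinase cascade that limits the transcriptional coactivators YAP (gene Yap1) and TAZ (gene Wwtr1). When the kinases LATS1 and LATS2 are active they phosphorylate YAP and TAZ, which are then held in the cytoplasm by 14-3-3 proteins or degraded. When the kinases are inactive, YAP and TAZ enter the nucleus, bind TEAD transcription factors and drive targets such as Cyr61 and Ctgf. The cascade responds to cell contact and to tension in the actin cytoskeleton, and contraction of the cytoskeleton is one of the topics in the title of the series. Phosphorylation, protein level and location of YAP and TAZ were not measured here.

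TEAD factors bind the letters CATTCC, read as GGAATG on the other strand. The 250 bases before the RefSeq start (build GRCr8) of 3 target genes are printed to show where these letters lie beside the genes used below as a readout of the pathway. Each runs 5′ to 3′ on the strand of the gene, with CATTCC or GGAATG in capitals. Ctgf lies at chr1:22624615-22624864 on the minus strand, Cyr61 at chr2:237225690-237225939 on the minus strand, and Amotl2 at chr8:112182376-112182625 on the plus strand.
Ctgf: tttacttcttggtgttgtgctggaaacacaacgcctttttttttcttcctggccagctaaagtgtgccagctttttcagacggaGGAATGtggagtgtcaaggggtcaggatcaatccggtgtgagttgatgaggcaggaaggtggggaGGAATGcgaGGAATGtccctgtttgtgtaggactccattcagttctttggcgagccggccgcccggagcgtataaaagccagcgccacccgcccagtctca
Cyr61: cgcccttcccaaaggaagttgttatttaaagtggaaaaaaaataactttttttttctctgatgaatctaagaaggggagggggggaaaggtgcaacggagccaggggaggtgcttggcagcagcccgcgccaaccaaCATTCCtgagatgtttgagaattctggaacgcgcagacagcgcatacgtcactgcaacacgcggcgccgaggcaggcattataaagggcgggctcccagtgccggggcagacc
Amotl2: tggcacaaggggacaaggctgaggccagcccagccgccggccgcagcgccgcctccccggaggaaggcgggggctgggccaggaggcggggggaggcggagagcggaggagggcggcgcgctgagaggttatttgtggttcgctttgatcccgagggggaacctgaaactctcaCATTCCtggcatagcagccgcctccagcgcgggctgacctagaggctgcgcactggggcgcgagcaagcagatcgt
The Ctgf window held 3 matches, whose first letters lie 166, 101 and 92 bases before the start. Cyr61 held 1 match at 113 bases and Amotl2 held 1 match at 76 bases. Yap1 itself held 1 match at 116 bases. Of the 10 genes, 7 had an entry in the RefSeq promoter table, and 4 of these 7 held the letters. Counted by window, 4 of their 11 windows held a match, 5 of the 11 being windows of Amotl1. Among all 33469 windows of the same length, 12.1% held at least 1 match on either strand and 0.902% held 2 or more. The CArG box, the motif of the actin-responsive factor SRF, was found in 1.5% of all windows and in 0 of the 11 windows of the 7 genes. A match describes letters in this window and is not evidence of binding.

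Levels within each library were compared in TPM, a share of all transcripts corrected for transcript length. Yap1 and Amotl2 led the 10 genes in both libraries, followed by the factor Tead1, the LATS kinases, Amotl1 and Wwtr1, and the secreted targets Cyr61 and Ctgf and the nuclear target Ankrd1 came last. Yap1 had 38.74 TPM with Aβ and 36.99 TPM with DMSO, at percentiles 75.8 and 75.3 of all listed genes. Ankrd1 had 0.13 TPM with Aβ and 0.06 TPM with DMSO, at percentiles 11.4 and 7.08. Both libraries therefore held many transcripts of Yap1 and very few of Ctgf and Ankrd1.

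**Figure D1:**
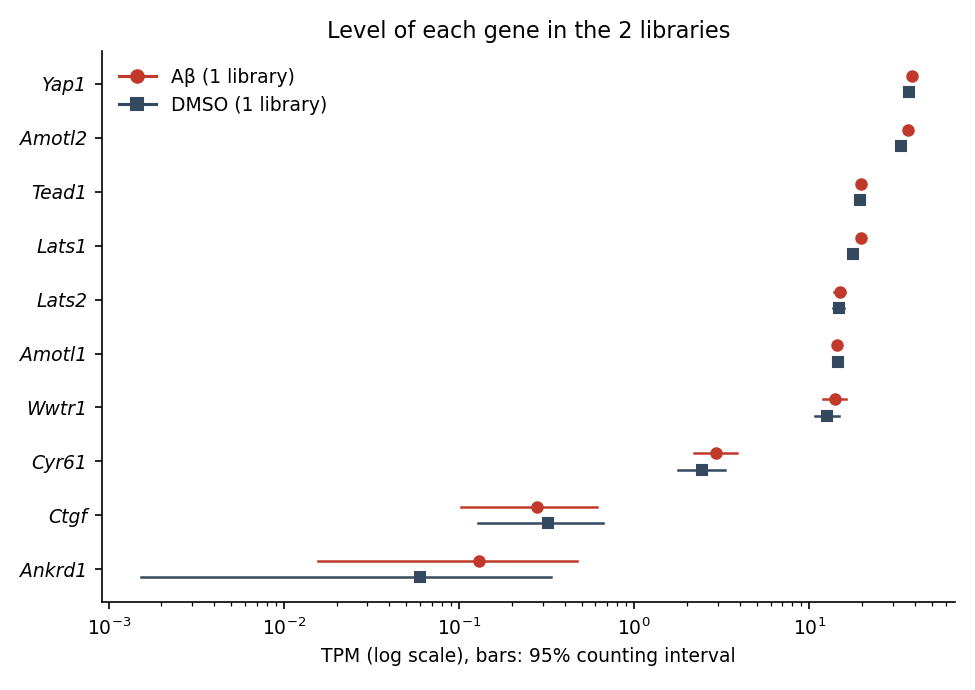
Level of each of the 10 genes in TPM (log axis) in the Aβ library (circles) and the DMSO library (squares), ordered by their mean. Bars are 95% Poisson intervals and cover counting error only. Yap1 and Amotl2 are highest, Ctgf and Ankrd1 lie below 1 TPM, and the 2 libraries lie close together for every gene above 10 TPM.

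The order of the 10 levels was the same in both libraries but for Tead1 and Lats1, which exchanged neighbouring places. Tead1 had 19.65 TPM with Aβ (95% counting interval 18.8 to 20.6) and 19.36 TPM with DMSO (18.5 to 20.2). Lats1 had 19.69 TPM with Aβ (18.7 to 20.8) and 17.70 TPM with DMSO (16.8 to 18.7). These intervals overlapped within each library, as did those of the neighbours Lats2, Amotl1 and Wwtr1 among themselves, and those of Ctgf and Ankrd1. Yap1 and Amotl2 overlapped with Aβ, while with DMSO Yap1 (35.3 to 38.8 TPM) lay just above Amotl2 (31.7 to 35.2 TPM). Levels per length also depend on the transcript models, and the effective length implied by counts and FPKM was 1218 bases for Wwtr1 and 4290 for Yap1.

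Between the libraries, ratios were computed as Aβ over DMSO from CPM (counts scaled to library size), with exact 95% intervals that cover counting error only. There was 1 library per condition and so no replicate, no test and no p-value, and the ratios compare 2 libraries. In bulk RNA, fewer cells expressing a gene and less of its RNA per cell cannot be told apart. Genes that reached 1 CPM in either library were treated as measured, a level met by 8 of the 10 genes and by 13505 genes in all. A gene was called when its log2 ratio, with 0.5 CPM added to each library, was at least 1 in size and its interval left out 1. None of the 8 measured pathway genes was called, beside 0.674% of all measured genes.

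The coactivators were at similar levels in both libraries. Yap1 had 1764 counts with Aβ against 1713 with DMSO, a ratio of 1.02 (0.955 to 1.09). Wwtr1 had 181 counts with Aβ against 166 with DMSO, a ratio of 1.08 (0.871 to 1.34). The Yap1 interval lay wholly within 1.2-fold, and the wider Wwtr1 interval did not. Yap1 exceeded Wwtr1 2.77-fold in TPM with Aβ and 2.93-fold with DMSO. The ratio of these quotients, taken from counts and so free of library scaling and transcript length, was 0.944 (0.752 to 1.19).

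Tead1, the DNA-binding partner of YAP and TAZ, had 1927 counts with Aβ against 1924 with DMSO, a ratio of 0.993 (0.932 to 1.06). In TPM it was the second TEAD factor of both libraries. Tead2 was the highest in TPM, with 52.13 TPM with Aβ and 54.45 TPM with DMSO. It made up 62.5% of the summed TEAD TPM with Aβ and 64.4% with DMSO. Tead2 had fewer counts than Tead1, 984 with Aβ and 1047 with DMSO, so the order rests on effective lengths. These were 1774 bases for Tead2 and 9237 for Tead1. Tead1 made up 23.6% with Aβ and 22.9% with DMSO, Tead3 13.0% with Aβ and 11.97% with DMSO, and Tead4 0.899% with Aβ and 0.757% with DMSO. Summed over the 4 factors, there were 3207 counts with Aβ against 3248 with DMSO, a ratio of 0.979 (0.932 to 1.03). The makeup of the TEAD family was thus nearly the same in both libraries.

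Lats1 and Lats2 encode the kinases that phosphorylate YAP and TAZ, and Lats2 is itself a YAP target. Lats1 had 1397 counts with Aβ against 1289 with DMSO, a ratio of 1.08 (0.996 to 1.16). Lats2 had 735 counts with Aβ against 737 with DMSO, a ratio of 0.989 (0.892 to 1.10). The lower limit of Lats1 lay next to 1. With counts brought to the TPM scale by a factor common to all genes, the interval was 1.02 to 1.19. The quotient of Lats1 over Lats2 was 1.32 in TPM with Aβ and 1.21 with DMSO. Compared by counts, the quotients stood at 1.09 to each other (0.955 to 1.24).

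Amotl1 and Amotl2 encode angiomotin-like scaffolds that bind YAP and activate LATS, and Amotl2 is also a YAP target. Amotl1 had 1227 counts with Aβ against 1268 with DMSO, a ratio of 0.960 (0.887 to 1.04). Amotl2 had 1488 counts with Aβ against 1386 with DMSO, a ratio of 1.06 (0.989 to 1.15). Amotl2 exceeded Amotl1 in both libraries, since the quotient of Amotl1 over Amotl2 was 0.393 in TPM with Aβ and 0.436 with DMSO. The quotients had a ratio of 0.901 to each other by counts, and the interval of 0.808 to 1.005 just included 1. Amot, the third angiomotin, was lower, with 7.58 TPM with Aβ and 6.95 TPM with DMSO, and had a ratio of 1.05 (0.927 to 1.19).

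The most used target genes of YAP and TAZ had few counts in both libraries. Cyr61, a secreted matricellular protein, had 52 counts with Aβ against 44 with DMSO, a ratio of 1.17 (0.769 to 1.79). Ctgf, its relative that promotes matrix synthesis, had 6 counts with Aβ against 7 with DMSO, a ratio of 0.850 (0.236 to 2.95). Ankrd1, an ankyrin-repeat protein best known from muscle, had 2 counts with Aβ against 1 with DMSO, a ratio of 1.98 (0.103 to 117). Together these 3 genes had 60 counts with Aβ against 52 with DMSO, a ratio of 1.14 (0.776 to 1.69). The interval of the sum reached above 1.5-fold on the higher side, and a difference of 2-fold in Ctgf or Ankrd1 was not detectable at this depth.

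**Figure D2:**
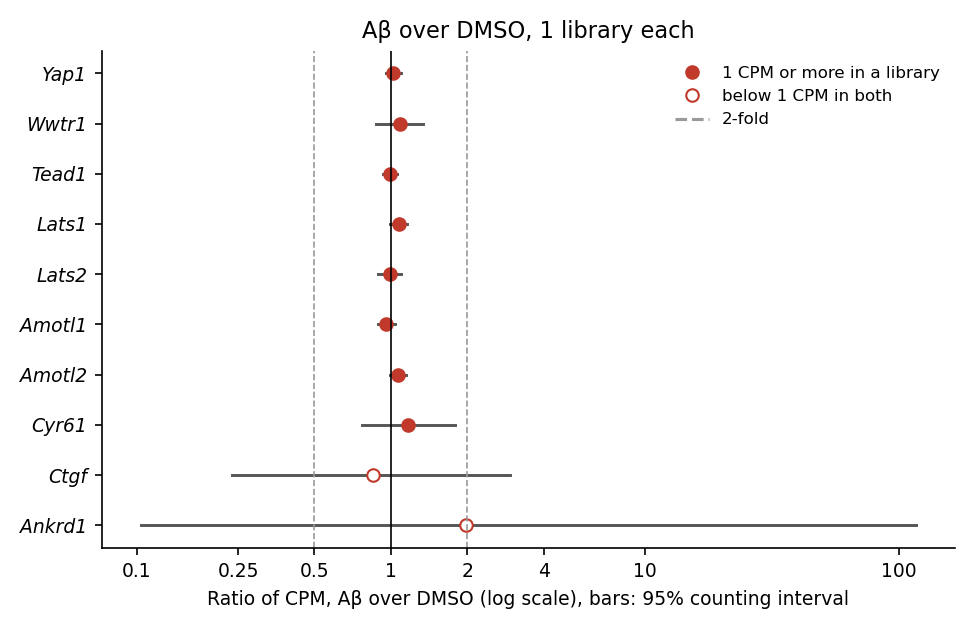
Ratio of CPM, Aβ over DMSO, for each of the 10 genes (log axis), with exact 95% counting intervals. Filled circles are genes that reached 1 CPM in either library, open circles are Ctgf and Ankrd1, which lie below it, and dashed lines mark 2-fold. All 10 intervals include 1, and they are widest for Cyr61, Ctgf and Ankrd1.

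Of the 8 measured genes, 5 had a ratio above 1 and 3 below, while 49.7% of all measured genes lay above 1. Over all 10 genes, 6 lay above 1 and 4 below. The median log2 ratio was 0.060, both over the 8 measured genes and over all 10, beside -0.0008 for all measured genes. None of the 8 lay beyond 1.2-fold, compared with 11.1% of all measured genes. None had an interval wholly above or below 1, compared with 13.4%. Intervals lay wholly within 1.2-fold for 6 of the 8 (Yap1, Tead1, Lats1, Lats2, Amotl1 and Amotl2) and for 48.3% of all measured genes, a share that depends on how many counts a gene has. Signs of the smallest ratios depended on scaling, since Tead1 and Lats2 lay above 1 with TPM and below 1 with CPM. With TPM 7 of the 8 lay above 1, beside 63.5% of all measured genes.

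**Figure D3:**
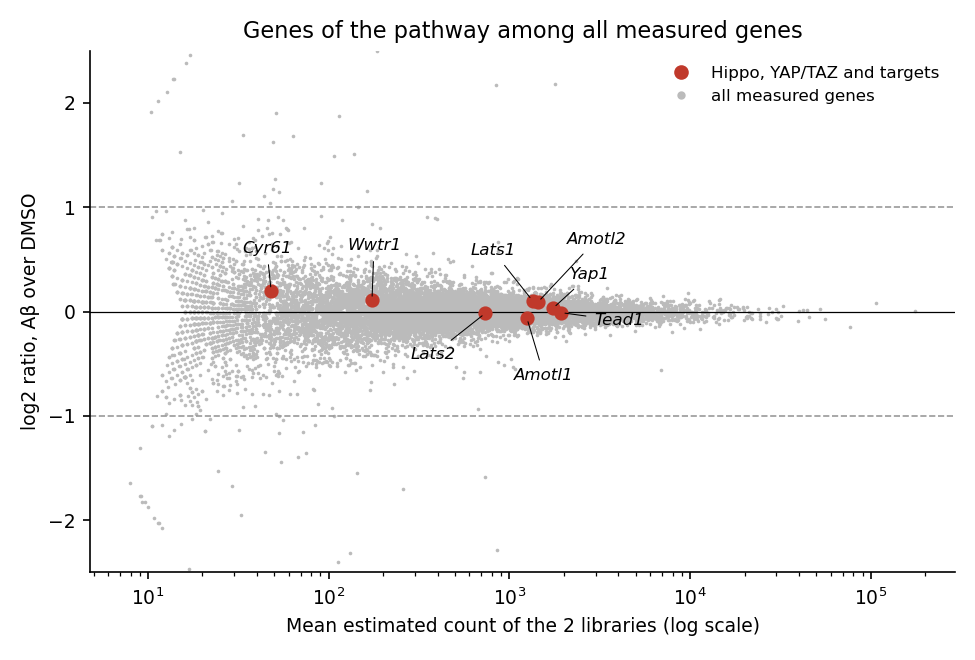
log2 ratio, Aβ over DMSO, against the mean estimated count of the 2 libraries (log axis) for all 13505 measured genes (grey) and the 8 measured pathway genes (red). Dashed lines mark 2-fold, and 23 genes lie outside the vertical axis. The 8 pathway genes have log2 ratios between -0.06 and 0.20 and sit inside the grey cloud.

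The other kinases and adaptors of the cascade differed little between the libraries. Of 16 such genes, all measured, 11 had a ratio above 1 and 5 below, and the log2 ratios had a median of 0.010. None of the 16 lay beyond 1.2-fold, compared with 11.1% of all measured genes. Intervals lay wholly above 1 for 3, beside 6.49% of all measured genes, and wholly below 1 for 0, beside 6.88%. The 3 were Map4k4, Taok1 and Nf2. With TPM 14 of the 16 ratios and 5 of the intervals lay above 1, beside 63.5% and 13.1% of all measured genes. Map4k4, a kinase that can phosphorylate LATS in parallel to the Hippo kinases, had 275.75 TPM with Aβ and 246.80 TPM with DMSO, the highest level of this list, and a CPM ratio of 1.09 (1.06 to 1.11). Taok1, a kinase that activates the Hippo kinases, had a ratio of 1.15 (1.02 to 1.30). Nf2, the tumour suppressor merlin that recruits LATS to the membrane, had a ratio of 1.09 (1.01 to 1.17). Wwc1, the scaffold KIBRA, was the furthest below 1 at 0.914 (0.799 to 1.05).

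The central Hippo kinases, their scaffold and the LATS cofactors were near 1. Stk3 and Stk4, which encode MST2 and MST1, had ratios of 1.01 (0.861 to 1.18) and 1.00 (0.903 to 1.11), and each stood at 12.4 to 13.9 TPM in the 2 libraries. Their scaffold Sav1 had 648 counts with Aβ against 638 with DMSO (ratio 1.01, 0.902 to 1.13). Mob1a, the more abundant MOB1 cofactor of LATS, had 34.39 TPM with Aβ and 34.83 TPM with DMSO and a CPM ratio of 0.960 (0.894 to 1.03). Mob1b had 14.50 TPM with Aβ and 13.50 TPM with DMSO and a CPM ratio of 1.05 (0.901 to 1.21). Actb, the housekeeping actin, had a ratio of 0.999 (0.983 to 1.015).

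Regulators at junctions and in the STRIPAK phosphatase complex, which opposes the Hippo kinases, numbered 18, all measured. Ratios lay above 1 for 11 and below for 7, and the median on the log2 scale was 0.0063. None of the 18 lay beyond 1.2-fold, compared with 11.1% of all measured genes. On the log2 scale with its pseudocount, the furthest were Ajuba, a LIM protein that restrains LATS, at 1.16 (0.906 to 1.49), and Rassf1, a scaffold of the Hippo kinases, at 1.14 (0.949 to 1.38). Stk26 followed at 0.843 (0.415 to 1.69) from fractional counts of 17.39 with Aβ and 19.7 with DMSO. Sike1, a STRIPAK subunit, had 1037 counts with Aβ against 1147 with DMSO, a ratio of 0.897 (0.824 to 0.976). Its interval was the only one of the 18 to leave out 1, beside 13.4% of all measured genes. With TPM no interval of this list left out 1, while 13.1% of all measured genes had an interval above 1 and 3.72% below. On that scale 16 of 17 measured genes had a ratio above 1, beside 63.5% of all measured genes.

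Of 7 TEAD factors and cofactors besides Tead1, 5 were in the table and measured. Their ratios lay above 1 for 4 and below for 1, while 49.7% of all measured genes lay above 1. The median log2 ratio was 0.11, beside -0.0008 for all measured genes. It was 0.061 over the 3 genes that passed a filter of 10 CPM. No interval left out 1 in CPM, beside 13.4% of all measured genes. With TPM 1 of 3 measured genes had an interval above 1, beside 13.1% of all measured genes. Vgll4, which competes with YAP for TEAD, had 905 counts with Aβ against 832 with DMSO, a ratio of 1.08 (0.981 to 1.19). Vgll3, another TEAD partner, had 36 counts with Aβ against 24 with DMSO, a ratio of 1.49 (0.864 to 2.61). Tead4 had 38 counts with Aβ against 32 with DMSO (ratio 1.18, 0.717 to 1.95), Tead2 had a ratio of 0.932 (0.854 to 1.02) and Tead3 1.04 (0.874 to 1.25).

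The list of genes that retain or degrade YAP and TAZ also held the tyrosine kinases Src and Yes1. Its 12 genes divided into 5 ratios above 1 and 7 below. Their median on the log2 scale was -0.029 in CPM and 0.0071 in TPM, a scale on which the median of all measured genes was 0.037. Intervals lay wholly above 1 for 1 of the 12, beside 6.49% of all measured genes, and wholly below 1 for 5, beside 6.88%. With TPM these counts were 3 above, beside 13.1% of all measured genes, and 0 below, beside 3.72%. With the length trend removed, 0 lay above and 5 below. Btrc, a ubiquitin ligase subunit that targets phosphorylated YAP for degradation, had 971 counts with Aβ against 875 with DMSO, a ratio of 1.10 (1.004 to 1.21). Fbxw11, its paralog, had a ratio of 1.05 (0.989 to 1.12). Src, a tyrosine kinase that can activate YAP, had 3163 counts with Aβ against 3319 with DMSO, a ratio of 0.945 (0.90 to 0.993).

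The 14-3-3 genes, whose proteins hold phosphorylated YAP and TAZ in the cytoplasm, supplied 4 of the 5 intervals below 1 in CPM. Summed over 6 isoforms they had 68702 counts with Aβ against 70713 with DMSO, a ratio of 0.964 (0.954 to 0.974). In TPM the difference was smaller, with sums of 3578.4 with Aβ and 3611.5 with DMSO. Measured genes in general were shifted upward on that scale, their log2 ratios having a median of 0.037 in TPM and -0.0008 in CPM. The smaller difference in TPM therefore does not show that the 14-3-3 genes lay nearer to the other genes. Ywhaq had 10259 counts with Aβ against 10694 with DMSO, a ratio of 0.952 (0.926 to 0.978). The difference in the sum is under 5% and its size depends on the scaling, and without replicates it cannot be set against the spread between cultures.

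Target genes were followed beyond the 3 classic ones with 17 others of a common YAP and TAZ signature, of which 15 were in the table and measured. Their ratios lay above 1 for 6 and below 1 for 9. The median log2 ratio was -0.0081 in CPM and 0.019 in TPM, beside -0.0008 and 0.037 for all measured genes. Intervals lay wholly above 1 for 0, beside 6.49% of all measured genes, and wholly below 1 for 3, beside 6.88%. The 3 became 2 with DESeq2 size factors, with total counts or with the length trend removed. With TPM 8 of 14 ratios lay above 1, beside 63.5% of all measured genes. On that scale 1 interval lay above 1 and 1 below, beside 13.1% and 3.72% of all measured genes. Rbms3, an RNA-binding protein, was the furthest, with 56 counts with Aβ and 80 with DMSO and a ratio of 0.694 (0.484 to 0.989). It was the 1 gene of this list beyond 1.2-fold on the lower side, a side that held 5.72% of all measured genes. Igfbp3, a binding protein of insulin-like growth factors, had 501 counts with Aβ against 578 with DMSO, a ratio of 0.860 (0.761 to 0.971). The third was F3, tissue factor, named after its value was seen, with a ratio of 0.923 (0.853 to 0.9997) from 1201 and 1290 counts in the Aβ and DMSO libraries.

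The rest of the target list lay nearer to 1 or rested on few counts. Nt5e, the ectonucleotidase CD73, had 31 counts with Aβ against 36 with DMSO (ratio 0.854, 0.511 to 1.42), and Ccdc80, a matrix protein, had 98 and 87 counts in the Aβ and DMSO libraries (ratio 1.12, 0.829 to 1.51). Axl, a receptor tyrosine kinase, had 875 counts with Aβ against 818 with DMSO, a ratio of 1.06 (0.963 to 1.17). Nuak2, a kinase that promotes actomyosin contraction, had 247 counts with Aβ against 257 with DMSO, a ratio of 0.953 (0.797 to 1.14). Over the 20 target genes in the table, with Cyr61, Ctgf, Ankrd1, Amotl2 and Lats2 among them, counts summed to 9762 with Aβ against 9682 with DMSO, a ratio of 1.00 (0.972 to 1.03). Targets differed widely in level, since F3 had 78.07 TPM with Aβ and 82.44 TPM with DMSO while Ctgf had 0.28 TPM with Aβ and 0.32 TPM with DMSO.

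**Figure D4:**
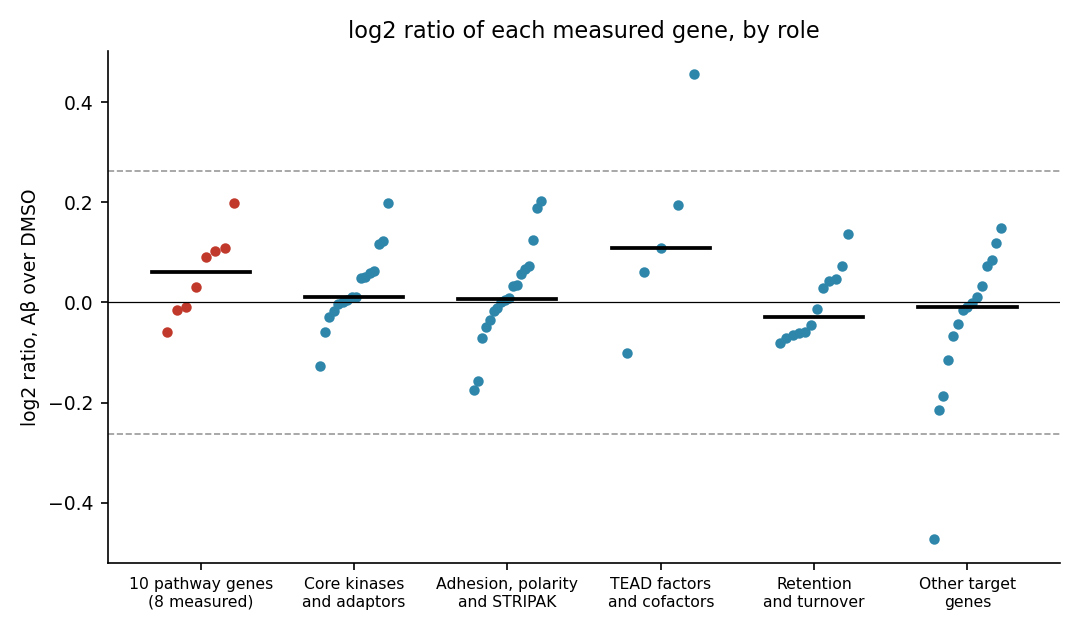
log2 ratio, Aβ over DMSO, of each measured gene in the 10 pathway genes (8 measured, red) and in 5 lists of related genes (blue), with black lines at the medians and dashed lines at 1.2-fold. The medians range from -0.029 to 0.11, and Vgll3 and Rbms3 are the points outside the dashed lines.

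Markers of OPCs were abundant in both libraries, with summed levels of 2224 TPM with Aβ and 2150 TPM with DMSO over 8 of 8 markers. Astrocyte markers summed to 963 TPM with Aβ and 919 TPM with DMSO over 5 genes, of which 2 had a CPM ratio above 1. Most of the sum came from Gfap, with 838.5 TPM with Aβ and 792.69 TPM with DMSO. Cells in which YAP and TAZ targets are often high, fibroblasts with pericytes and endothelium, were represented at 5.54 and 0.860 TPM with Aβ and at 5.14 and 0.750 TPM with DMSO. Oligodendrocyte markers summed to 73.2 TPM with Aβ and 71.7 TPM with DMSO, and neuronal markers to 109.7 TPM with Aβ and 106.7 TPM with DMSO. Microglial markers summed to 7.96 TPM with Aβ and 8.76 TPM with DMSO, and Schwann cell markers to 17.65 TPM with Aβ and 23.5 TPM with DMSO. In the fibroblast and pericyte list, 7 of 8 markers were in the table, and only 1 of these 7 had a CPM ratio above 1. That gene was Col1a2, with 129 counts with Aβ against 81 with DMSO, from fractional counts. In TPM it led this list with Aβ. Pdgfrb led with DMSO, and had 97 counts with Aβ against 106 with DMSO. Lum and Rgs5 had 0 counts with Aβ and 2 and 1 with DMSO. The part of these cell types in the levels of Cyr61, Ctgf and Ankrd1 was not tested.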

How the data were processed

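Bulk RNA sequencing was available for 1 Aβ and 1 DMSO library, grouped by the treatment label. Bowtie2 and the build Rnor 6.0 are listed in the submitters' processing notes. No quantifier, annotation release or strand setting is given in the sources used here. Per gene, the authors deposited estimated counts (expected counts), TPM and FPKM, per the file headers. Counts were whole for all 10 genes and fractional for 11.9% of all genes in each library, and were rounded. CPM used effective library sizes from TMM (edgeR 4.0.16, R 4.3.3). Log2 ratios carry a pseudocount of 0.5 CPM and understate differences of low genes. Ratios without pseudocount have exact 95% Clopper-Pearson intervals given the sum of both counts (scipy 1.17.1), and TPM levels have Poisson intervals. Such intervals cover counting error only. Where TPM replaced CPM, ratios came from the deposited TPM. Intervals of these ratios came from the counts, multiplied by a factor common to all genes. Effective lengths came from counts and the authors' FPKM. The procedure was run on simulated counts drawn with counting error alone, which hold no spread between cultures and so cannot check for it. Promoter windows came from the RefSeq table of build GRCr8 and were matched by gene identifier.

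The 10 genes and the lists were chosen with earlier results of these data known. The text names the 10 genes, up to 4 measured genes per list whose log2 ratio lay furthest from 0, and Tead2, Tead3, Tead4, Vgll4, Stk3, Stk4, Sav1, Mob1a, Mob1b, Nf2, Amot, Axl, Nuak2 and Actb. Genes whose intervals left out 1 in a list with few of them, Gfap, Col1a2, Pdgfrb, Lum and Rgs5 were named after their values were seen. Alternatives were size factors of DESeq2 1.42.0, total counts, TPM, a pseudocount of 5 CPM, other filters on level, a 1.5-fold rule, whole counts alone and removal of the trend with transcript length (lowess, span 0.3, statsmodels 0.14.6).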

Additional observations from a re-analysis of the deposited data

How the results depend on the processing

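No paired analysis was possible because each condition has 1 library, and for the same reason no library could be left out. None of the 10 genes was called under any of the 9 alternatives. Genes below the filter on level could not be called, which held for Ctgf and Ankrd1 in every setting that kept a filter. The median log2 ratio of the measured pathway genes ranged from 0.030 (filter of 10 CPM) to 0.098 (TPM). Medians of all measured genes lay between -0.0023 and 0.037. The sign of the log2 ratio changed for Tead1 (-0.051 to 0.021) and Lats2 (-0.034 to 0.020) and for no other of the 10. With DESeq2 size factors the Lats1 interval (to 1.17) began at 1.00 and just left out 1, and with TPM those of Lats1 (1.02 to 1.19) and Amotl2 (1.015 to 1.18) did. The number of all measured genes called, 36 higher and 55 lower, became 8 higher and 16 lower with a pseudocount of 5 CPM, 9 and 15 with a filter of 10 CPM, 105 and 129 at 1.5-fold, and 2 and 10 with whole counts alone. The stricter settings test fewer or damp low genes by construction. Medians of 2 lists, retention and turnover and the other targets, changed sign with TPM. Depth limits Cyr61, Ctgf and Ankrd1 most, with 52 counts or fewer in each library.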
